A study of Mus musculus with 16 samples.

Results

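The MiT/TFE family of transcription factors has 4 genes in the mouse, Tfeb, Tfe3, Mitf and Tfec, and their RNA was followed here in macrophages sorted from the fat of lean and obese mice. The members were the probe sets, the array's groups of short oligonucleotides for one transcript, that carried a member as their only gene symbol. There were 5 such probe sets among 34945 with a single symbol and 45101 in all. Tfeb was measured by 1422566_at, Tfe3 by 1434318_a_at, Tfec by 1419537_at, and Mitf by a bright probe set, 1455214_at, and a dim one, 1422025_at. In the GRCm38.p6 assembly Tfeb lies on chromosome 17 from 47737037 to 47792416 and Tfe3 on chromosome X from 7762530 to 7775202. Mitf lies on chromosome 6 from 97807002 to 98021360, and Tfec on the same chromosome from 16830927 to 16898464.

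The cells were adipose tissue macrophages from perigonadal fat of mice on the C57BL/6J background, 12 to 14 weeks old. Lean mice were Lep +/+, and obese mice were Lep ob/ob, which lack functional leptin, the satiety hormone made by fat cells. FB cells were F4/80+ CD11b+ CD11c-, and FBC cells were F4/80+ CD11b+ CD11c+, where F4/80 and CD11b are macrophage surface antigens and CD11c is an integrin of dendritic cells and of macrophages that gather in obese fat. There were 4 arrays for each of the 4 groups (Lean-FB and Obese-FB, Lean-FBC and Obese-FBC), and both populations came from 4 lean and 4 obese mice. One label of the FBC samples writes the CD11c sign ambiguously, while the titles, descriptions and design text all give CD11c+. Obesity here rests on the absence of leptin signalling throughout life, not on diet. The labels do not say outright that every array held the cells of a single mouse, so the p-values measure the spread between arrays.

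MiT/TFE proteins are basic helix-loop-helix leucine zipper factors that bind DNA as dimers, with themselves or with each other. In fed cells the kinase complex mTORC1 phosphorylates TFEB, TFE3 and MITF on the lysosome surface and 14-3-3 proteins then hold them in the cytoplasm, and on starvation or lysosomal stress calcineurin removes the phosphates and the factors enter the nucleus. There they bind the E-box CACGTG within a longer element called CLEAR, and switch on genes of lysosomes and autophagy. MITF is also the lineage factor of melanocytes, mast cells and osteoclasts, and TFEC is made mainly in macrophages. Since these factors are governed largely by where the protein sits, an RNA level does not measure their activity.

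The element these factors read is shown first because the lists of lysosomal and autophagy targets described further on are named after it, although not every listed gene holds its letters near the start site. The search used GTCACGTG, which is 8 of the 10 letters of the CLEAR palindrome and holds the E-box CACGTG within it. Either strand counted, so a site can also read CACGTGAC. Windows ran from 250 bases before to 50 bases after each start site in RefSeq's promoters of GRCm38.p6. Of 32851 promoters 2.25% held the 8 letters, against 14 of 39 promoters (35.9%) of the lysosomal target list. The list was assembled from known CLEAR targets, so that enrichment is a property of the list. One site follows for each of the 5 listed lysosomal genes that carried the letters and rose in obese FBC cells, and for one that did not pass the test, Mcoln1. They were chosen after their values were seen, and Ctsa, Ctsd and Mcoln1 each hold another site that is not printed. The calls of Clcn7, Ctsa and Lamp1 were lost in 1, 1 and 2 of 30 other settings. That of Clcn7 was lost when all probe sets of the gene were averaged (adjusted p = 0.343, limma). The Ctsa call was lost with median centring (adjusted p = 0.0678, limma). For Lamp1 it was lost with median centring and without quantile normalization, with an adjusted p of up to 0.177 (limma). Capitals mark the 8 letters, with 10 bases on each side.
Clcn7 (chr17:25133364-25133391, plus strand): tccgtcgtcaGTCACGTGggcaccgatg
Ctsa (chr2:164833749-164833776, plus strand): tgagcaaactGTCACGTGatgcagatgc
Ctsd (chr7:142387908-142387935, minus strand): gcccgcgtctCACGTGACccgttgaggg
Lamp1 (chr8:13159123-13159150, plus strand): tgccgactggCACGTGACcacatcacgt
Naglu (chr11:101070009-101070036, plus strand): caaccttcagGTCACGTGgcccgaggtc
Mcoln1 (chr8:3500436-3500463, plus strand): ggtcgcgcttGTCACGTGttcagttcag

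Upstream of the members themselves the E-box letters were not found. RefSeq gave 9 start sites for the 4 genes, 3 for Tfeb, 2 for Tfe3, 3 for Mitf and 1 for Tfec, and 0 of the 9 promoters held CACGTG, against 7.15% of all promoters. A 7-letter core of the kind bound by PU.1, the master factor of macrophages, AGGAAGT on either strand, was in 1 of the 9 windows of 250 bases before the start, and in 7.69% of all such windows. Over the whole promoters, as searched for the E-box, it was in 2 of 9 and in 9.35% of all. That window was of Tfec, 71 bases before the start. The windows of Tfec and of the most upstream Tfeb start are printed, the first for its match in capitals and the second because Tfeb had the lowest adjusted p of the family. A match is a description of letters and not a measured site.
Tfec (chr6:16898442-16898691, minus strand): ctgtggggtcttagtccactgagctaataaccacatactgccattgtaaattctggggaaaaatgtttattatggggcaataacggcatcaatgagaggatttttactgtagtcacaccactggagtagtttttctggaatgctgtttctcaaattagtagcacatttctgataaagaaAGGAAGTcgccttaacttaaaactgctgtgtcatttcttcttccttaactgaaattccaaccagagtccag
Tfeb (chr17:47736787-47737036, plus strand): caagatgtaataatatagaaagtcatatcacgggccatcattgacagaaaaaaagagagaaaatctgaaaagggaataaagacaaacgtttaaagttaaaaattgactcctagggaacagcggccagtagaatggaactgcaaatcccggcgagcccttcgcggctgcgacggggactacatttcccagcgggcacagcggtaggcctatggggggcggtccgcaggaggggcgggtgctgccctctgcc

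Several facts of the arrays touch all that follows. The ratio of 3' to 5' actin signal, which grows when RNA is broken or copied short, was 45.0 to 53.3 on 3 arrays, Lean-FB 4, Lean-FBC 4 and Obese-FB 4, and 1.15 to 10.9 on the other 13. Many differences of the members and counts of called target genes are also given without those 3 arrays. A value not given so may also have moved. The shares of all genes called are given for the main fit only. A list count under another setting therefore has no such share beside it, and its rise or fall is not particular to the list. The 7 macrophage markers were bright, meaning above the array median on at least 4 arrays, with a summed log2 level of 15.12 to 15.27 in Lean-FB, 14.91 to 15.26 in Lean-FBC, 15.05 to 15.37 in Obese-FB and 15.51 to 15.57 in Obese-FBC. Adgre1, which encodes the F4/80 antigen, was higher in obese than lean FBC by 1.08 ± 0.24 on the log2 scale (adjusted p = 0.00668, limma). Itgax, which encodes CD11c, was higher in FBC than in FB by 1.49 ± 0.26 in lean and 2.20 ± 0.26 in obese mice on the log2 scale (adjusted p = 0.0213 and 0.000111, limma). The Lep probe set was higher in obese FBC by 1.12 ± 0.36 on the log2 scale (adjusted p = 0.049, limma), which does not check the genotype, since the ob allele is a point mutation that these probes do not distinguish. In sorted bulk RNA a smaller share of cells expressing a gene and less of its RNA per cell cannot be told apart.

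Levels are log2 of intensity plus 16 after quantile normalization, and probe sets differ in brightness for reasons of probe design, so levels of different probe sets are not compared. A probe set was called changed at a Benjamini-Hochberg adjusted p below 0.05 over all 34945 single-symbol probe sets. No MiT/TFE probe set was called in any comparison. The 5 comparisons gave 25 results, with limma adjusted p from 0.155 to 0.999, and 4 of the 25 had an unadjusted p below 0.05. The count called was 0 of 5 for obese against lean FB cells, where 2.1% of all probe sets were called, and 0 of 5 in FBC, where 5.95% were. It was 0 of 5 for FBC against FB in lean mice (0.0372% of all), 0 of 5 in obese mice (3.14%), and 0 of 5 for the difference of the obesity effect between the populations (0.0286%). Unadjusted p-values below 0.05 fell on 1, 2, 0, 1 and 0 members in that order, against 14.8%, 19.9%, 6.7%, 17.1% and 10.0% of all probe sets. With 5 members, counts of this size show nothing particular to the family.

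**Figure D1:**
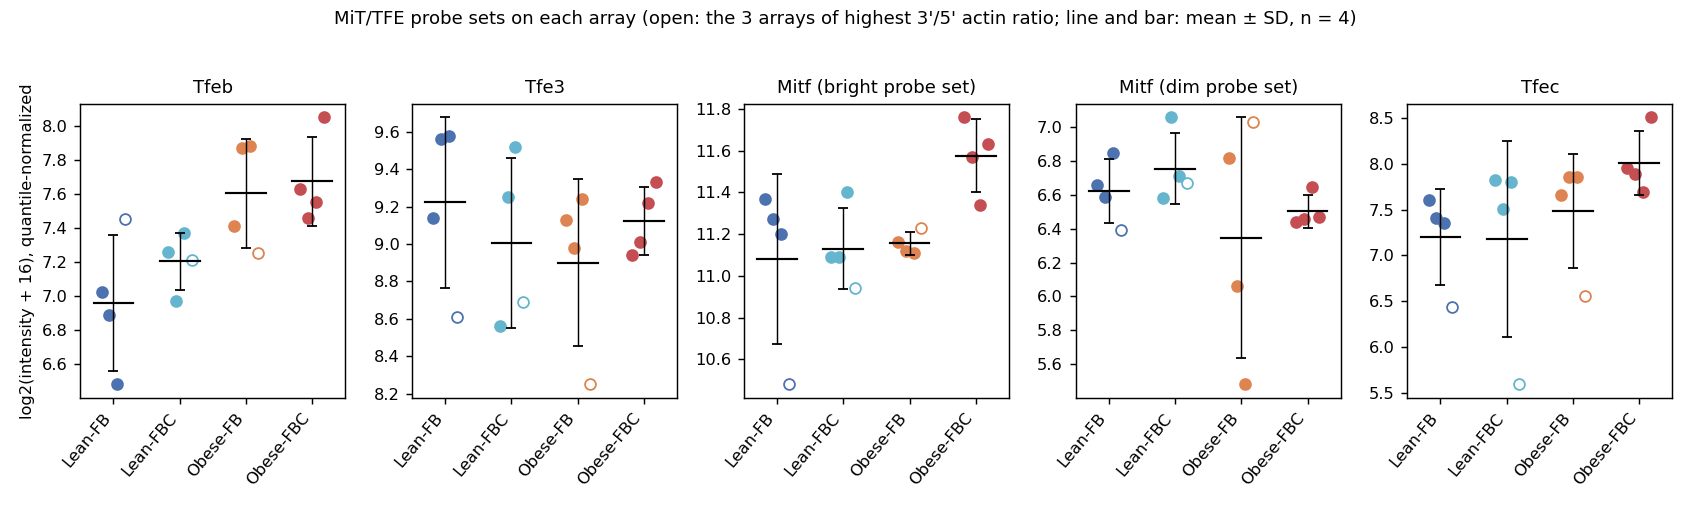
Each point is 1 array, with the normalized log2 level on the vertical axis, a panel for each probe set and the 4 groups along the horizontal axis. Lines and bars are the mean and SD of 4 arrays, open points are the 3 arrays of highest actin ratio, and the axes do not start at 0. All 4 Obese-FBC arrays lie above all 4 Lean-FBC arrays for Tfeb, and for Tfec the open points are the lowest of their groups.

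Tfeb, named as the master regulator of lysosome formation, had higher mean levels in obese than in lean macrophages of both populations, and neither difference passed the adjusted threshold. In lean mice its level was 7.02, 6.89, 6.48 and 7.45 on the 4 FB arrays and 7.26, 6.97, 7.37 and 7.21 on the FBC arrays. In obese mice it was 7.41, 7.87, 7.88 and 7.25 on the FB arrays and 7.63, 7.46, 7.55 and 8.05 on the FBC arrays. Every Obese-FBC array was above every Lean-FBC array, a separation that 7.8% of all probe sets showed in that direction, while 2 of the 4 Obese-FB arrays were above all Lean-FB arrays. In FB cells Tfeb was higher in obesity by 0.64 ± 0.22 (SE) on the log2 scale, a fold of 1.56 with a 95% interval of 1.13 to 2.15 (adjusted p = 0.155, limma, n = 4 per group). In FBC cells it was higher by 0.47 ± 0.22, a fold of 1.38 with a 95% interval from 1.0 to 1.9 (adjusted p = 0.246, limma). Both obesity differences kept their sign in each of the 30 other settings run.

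Whether Tfeb was called in FB cells changed with how the high-actin arrays were treated. Lean-FB 4, one of the high-actin arrays, had the highest Tfeb level of its group, 7.45, and without it the difference was 0.81 and passed (adjusted p = 0.04, limma). Without all 3 high-actin arrays it was 0.92 (adjusted p = 0.019, limma), and the group means were then 6.80 ± 0.29 (SD, n = 3) and 7.72 ± 0.27 (SD, n = 3). With arrays weighted by their quality it was 0.95 (adjusted p = 0.00485, limma), and with the actin ratio as a covariate it was 0.65 and did not pass (adjusted p = 0.125, limma). The part of RNA quality in this result was not tested further. Between the sorted populations Tfeb differed by 0.25 in lean mice, with a 95% interval of -0.22 to 0.71, and by 0.07 in obese mice, with an interval of -0.39 to 0.53 (adjusted p = 0.897 and 0.92, limma). The obesity effect in FBC minus that in FB was -0.18, with an interval of -0.83 to 0.48 (adjusted p = 0.888, limma).

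Mitf, the lineage factor that osteoclasts share with pigment and mast cells, had its highest mean in Obese-FBC on the bright probe set. On that probe set the levels were 11.37, 11.27, 11.20 and 10.48 in Lean-FB and 11.09, 11.09, 11.40 and 10.94 in Lean-FBC. They were 11.16, 11.12, 11.11 and 11.23 in Obese-FB and 11.76, 11.57, 11.34 and 11.63 in Obese-FBC. All 4 Obese-FBC arrays were above all Obese-FB arrays, as for 6.62% of all probe sets, and 3 of the 4 were above all Lean-FBC arrays. In FBC cells bright Mitf was higher in obesity by 0.44 ± 0.19 on the log2 scale, a fold of 1.36 with a 95% interval of 1.03 to 1.79 (adjusted p = 0.205, limma). In obese mice FBC exceeded FB by 0.42 ± 0.19, a fold of 1.34 with an interval of 1.01 to 1.77 (adjusted p = 0.27, limma). These comparisons share the 4 Obese-FBC arrays, so they are not separate evidence for the level in that group.

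In FB cells bright Mitf differed with obesity by 0.07, with a 95% interval of -0.33 to 0.48 (adjusted p = 0.915, limma), and in lean mice the populations differed by 0.05, with an interval of -0.35 to 0.46 (adjusted p = 0.986, limma). The obesity effect in FBC exceeded that in FB by 0.37, with an interval of -0.20 to 0.94 (adjusted p = 0.669, limma). Without the 3 high-actin arrays the difference between the lean populations was -0.08 and that between the obesity effects 0.53. The lowest bright Mitf level of all 16 arrays was on Lean-FB 4, at 10.48. Without the 3 high-actin arrays the FB difference of bright Mitf was -0.15 (adjusted p = 0.662, limma), the FBC difference 0.38 (adjusted p = 0.148, limma) and that between the obese populations 0.45 (adjusted p = 0.12, limma).

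The dim Mitf probe set had the sign opposite to the bright one in both obesity comparisons and the same sign in the others. Its levels were 6.66, 6.59, 6.85 and 6.39 in Lean-FB, 6.58, 7.06, 6.71 and 6.67 in Lean-FBC, and 6.44, 6.46, 6.65 and 6.47 in Obese-FBC. In Obese-FB they spread from 5.48 to 7.03, at 6.82, 6.06, 5.48 and 7.03, the widest group of that probe set. In obese against lean FBC cells the dim probe set gave -0.25, with a 95% interval of -0.81 to 0.31 (adjusted p = 0.665, limma), where the bright one gave 0.44. In FB cells it gave -0.28, with an interval of -0.83 to 0.28 (adjusted p = 0.701, limma), and -0.58 without the 3 high-actin arrays (adjusted p = 0.231, limma). FBC minus FB was 0.13 in lean mice, with an interval of -0.42 to 0.69, and 0.16 in obese mice, with an interval of -0.40 to 0.72 (adjusted p = 0.971 and 0.823, limma). The obesity effect in FBC minus that in FB was 0.03, with an interval of -0.76 to 0.81 (adjusted p = 0.988, limma). Mitf has several promoters and alternative first exons, and which transcripts each probe set detects was not analysed here.

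Tfe3, a broadly expressed relative of Tfeb, showed no difference between group means larger than the pooled SD within groups, 0.40. Its levels were 9.14, 9.56, 9.58 and 8.61 in Lean-FB, and 8.56, 9.25, 9.52 and 8.69 in Lean-FBC. They were 9.13, 8.98, 9.24 and 8.25 in Obese-FB, and 8.94, 9.01, 9.22 and 9.33 in Obese-FBC. The 4 groups overlapped throughout, and the Obese-FBC arrays were the closest together. The obesity difference was -0.32 in FB, with a 95% interval of -0.89 to 0.25, and 0.12 in FBC, with an interval of -0.46 to 0.69 (adjusted p = 0.65 and 0.866, limma). FBC minus FB was -0.22 in lean mice, with an interval of -0.79 to 0.36, and 0.22 in obese mice, with an interval of -0.35 to 0.80 (adjusted p = 0.937 and 0.749, limma). The obesity effect in FBC minus that in FB was 0.44, with an interval of -0.37 to 1.25 (adjusted p = 0.728, limma). The FBC obesity difference was 0.02 and FBC minus FB in obese mice 0.01 without the 3 high-actin arrays. Lean-FB 4 and Obese-FB 4 had the lowest Tfe3 level of their groups.

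Tfec, the member restricted mostly to macrophages, had the largest point difference of the family and also the widest spread over all 16 arrays. Neither held without the 3 high-actin arrays, where Tfeb differed by 0.92 in FB and dim Mitf had an SD of 0.67 in Obese-FB. The Tfec levels were 7.60, 7.41, 7.35 and 6.43 in Lean-FB, and 7.82, 7.51, 7.80 and 5.59 in Lean-FBC. They were 7.66, 7.86, 7.86 and 6.56 in Obese-FB, and 7.95, 7.89, 7.69 and 8.51 in Obese-FBC. In 3 groups the lowest array was the high-actin array, number 4, and the highest Tfec level of all was on Obese-FBC 4, which had the lowest actin ratio, 1.15. In FBC cells Tfec was higher in obesity by 0.83 ± 0.44, a fold of 1.78 with a 95% interval of 0.939 to 3.36 (adjusted p = 0.308, limma). Without the 3 high-actin arrays this was 0.30 (adjusted p = 0.388, limma), between group means of 7.71 ± 0.17 (SD, n = 3) and 8.01 ± 0.35 (SD, n = 4). The FB difference was 0.29, with an interval of -0.63 to 1.21 (adjusted p = 0.83, limma), and 0.34 without those arrays. The part of RNA quality in the Tfec levels was not tested further. FBC minus FB was -0.01 in lean mice, with an interval of -0.94 to 0.91, and 0.53 in obese mice, with an interval of -0.39 to 1.45 (adjusted p = 0.999 and 0.594, limma). The obesity effect in FBC minus that in FB was 0.54, with an interval of -0.76 to 1.84 (adjusted p = 0.805, limma). These 3 differences were 0.26, 0.22 and -0.04 without the high-actin arrays.

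**Figure D2:**
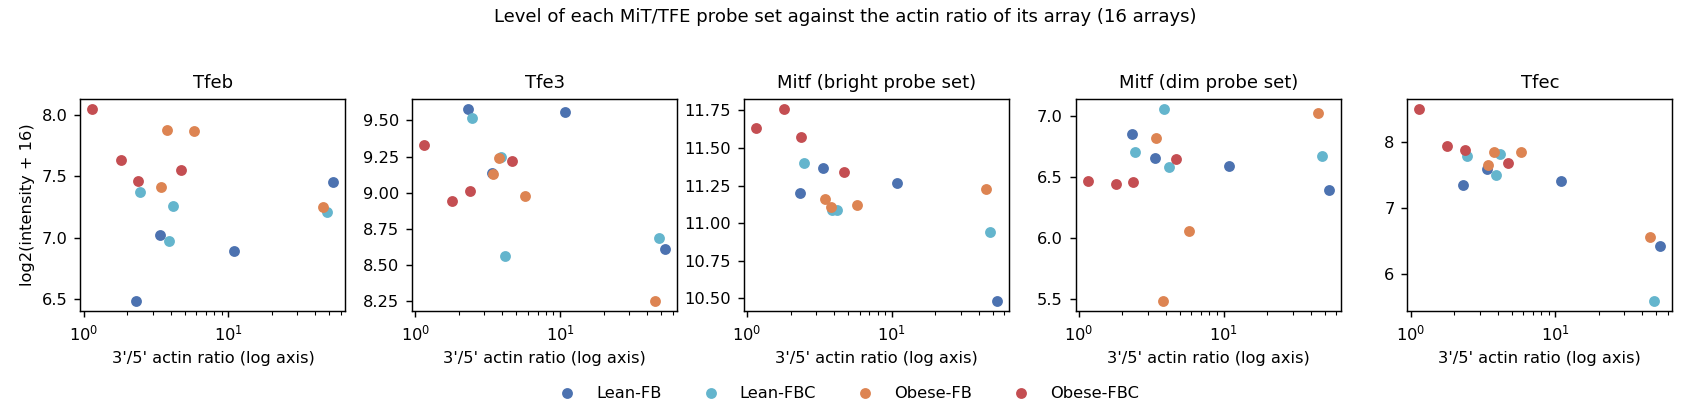
The normalized log2 level of each probe set is plotted against the 3' to 5' actin ratio of its array on a log axis, 16 arrays in all, coloured by group. The 3 arrays at ratios of 45.0 to 53.3 have the 3 lowest Tfec levels, 5.59 to 6.56, while for Tfeb they lie within the range of the other arrays.

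The order of group means differed between members. The Tfeb mean was lowest in Lean-FB, at 6.96 ± 0.40 (SD, n = 4), followed by Lean-FBC at 7.20 ± 0.17, then Obese-FB at 7.60 ± 0.32, with Obese-FBC highest at 7.67 ± 0.26, and each neighbouring pair overlapped. Bright Mitf had Lean-FB (11.08 ± 0.40), Lean-FBC (11.13 ± 0.19) and Obese-FB (11.15 ± 0.06) within 0.07 of each other, below Obese-FBC (11.57 ± 0.18). Tfec had Lean-FBC (7.18 ± 1.07) and Lean-FB (7.20 ± 0.52) lowest, then Obese-FB (7.48 ± 0.63) and Obese-FBC (8.01 ± 0.35). Tfe3 was highest in Lean-FB (9.22 ± 0.46) and lowest in Obese-FB (8.90 ± 0.44). The range of group means was 0.71 for Tfeb against a pooled SD within groups of 0.30, and 0.49 against 0.24 for bright Mitf. It was 0.83 against 0.69 for Tfec, 0.32 against 0.40 for Tfe3, and 0.41 against 0.39 for dim Mitf. Over all 16 arrays the groups of these last 3 thus differed by about as much as arrays within a group. For Tfec that depended on the 3 high-actin arrays. Without them its group means ran from 7.45 (Lean-FB) to 8.01 (Obese-FBC), and its SDs within groups from 0.12 to 0.35. Probe sets of Tfeb, Tfe3 and bright Mitf were above the array's median level on 16 of 16 arrays, and those of Tfec and dim Mitf on 15.

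**Figure D3:**
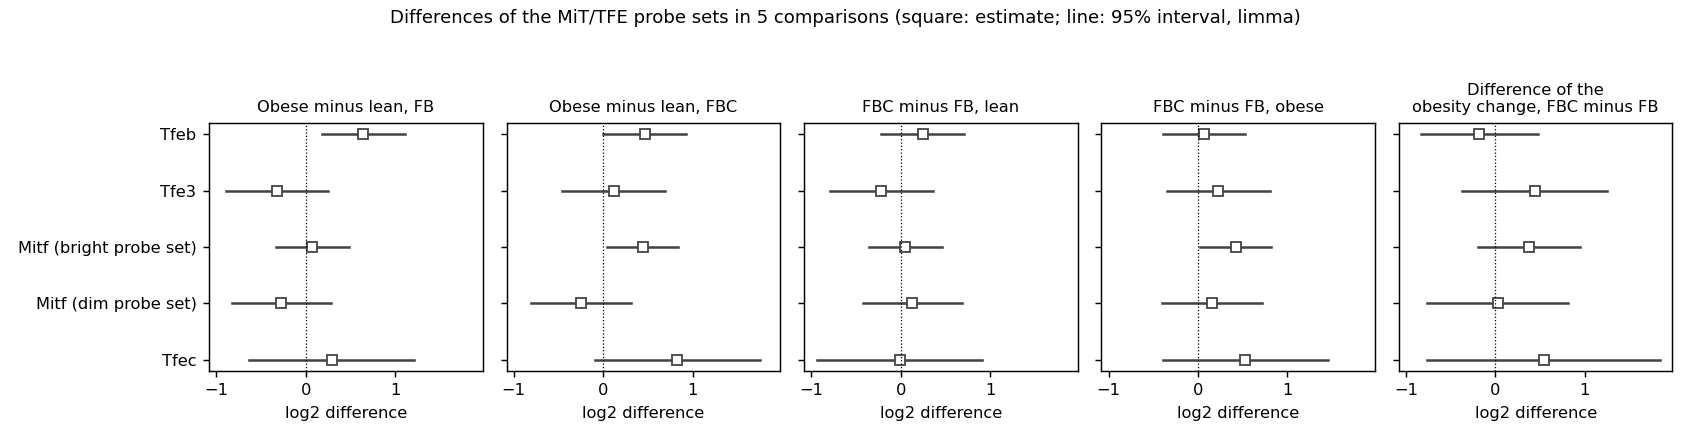
Squares are the log2 differences of each MiT/TFE probe set in the 5 comparisons, and lines are 95% intervals from the limma fit. The intervals of Tfeb in both obesity comparisons and of bright Mitf in 2 comparisons lie above 0, and none of the 25 passed after adjustment over all probe sets.

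As a description of which genes had levels most like each member's, Pearson correlations of the normalized log2 level were computed over the 16 arrays. These arrays share groups and differ in RNA quality, so each value is followed by the correlation without the 3 high-actin arrays. The 3 genes given for each member had the highest values among the tested genes, so high values follow in part from that choice. The second value uses arrays that also gave the first, so it is not separate evidence. Closest to Tfeb was Eif2b3, a translation initiation subunit, at 0.895 and 0.907 without them, followed by Sqle, an enzyme of cholesterol synthesis, at 0.872 and 0.882, and Cyth2 at 0.868 and 0.884. Closest to bright Mitf were Anln, an actin-binding protein of cell division, at 0.908 and 0.883, Manea at 0.908 and 0.879, and Gnpda2 at 0.905 and 0.795. For Tfec the closest was Apoe, the lipid carrier apolipoprotein E, at 0.93, and this fell to 0.408 without the high-actin arrays, as Pcyt1a fell from 0.917 to 0.473, while Dcps went from 0.919 to 0.751. For Tfe3 they were Serf1 at 0.875 and 0.76, Cma1, a mast cell chymase, at 0.868 and 0.756, and Junb at 0.866 and 0.678.

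Among the members the correlations over the arrays ranged from below 0 to 0.653. Tfeb correlated with Tfe3 at -0.174, with bright Mitf at 0.197 and with Tfec at 0.389. Tfec correlated with bright Mitf at 0.653 and with Tfe3 at 0.511, and bright Mitf with Tfe3 at 0.356. Without the 3 high-actin arrays Tfeb correlated with Tfe3 at -0.344, with bright Mitf at 0.305 and with Tfec at 0.848. Tfec then correlated with bright Mitf at 0.548 and with Tfe3 at -0.303, and bright Mitf with Tfe3 at 0.026. The values for Tfeb with Tfec, and for Tfe3 with Tfec and with bright Mitf, moved most with those 3 arrays.

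The genes that act on these factors and those they are known to switch on were described from 6 lists, 1 probe set per gene, among 11908 genes that exceeded the median of the array on 4 or more arrays. A gene can be in more than one list. In obese against lean FBC cells 8.12% of all 11908 genes rose and 5.95% fell, with a median difference of 0.08 on the log2 scale. In FB cells 1.81% rose and 4.07% fell, with a median of 0.03. In the obese mice 5.11% were higher in FBC than in FB and 3.28% lower, with a median of 0.08, and in the lean mice 0.151% and 0.042%. The obesity comparison in FBC and the FBC against FB comparison in obese mice share the Obese-FBC arrays. Summed markers of dendritic cells also differed between the groups compared, at 12.79 to 13.49 in Lean-FBC, 11.62 to 12.61 in Obese-FBC, 11.34 to 11.57 in Lean-FB and 9.59 to 10.26 in Obese-FB (6 of 7 measured markers bright, Xcr1 not above the median on any array), and their part in the list counts was not tested. Of the dendritic markers Fscn1 was the brightest in FBC. Flt3 went the other way with obesity, at 6.50 to 8.25 in Lean-FBC and 7.77 to 8.51 in Obese-FBC. Between lean and obese FB the fibroblast sum was 11.56 to 14.39 against 11.11 to 11.51. The mesothelial sum there was 8.17 to 9.46 against 6.71 to 7.79, and the part of these sums was not tested. The macrophage sum given above and that of eosinophil markers also differed between lean and obese FBC. The eosinophil sum was 8.44 to 9.90 in Lean-FBC and 7.36 to 7.87 in Obese-FBC, with 2 of 5 measured markers bright. Among these Siglecf was 7.84 to 9.65 in Lean-FBC and 5.79 to 6.32 in Obese-FBC. Ccr3 was 4.46 to 5.11 and 4.40 to 6.25, and Epx and Prg2 were not above the median on any array. The part of the macrophage and eosinophil sums in the counts was not tested. Among adipocyte markers Car3 was 10.12 to 12.55 in Lean-FBC and 7.43 to 9.09 in Obese-FBC. In FB cells Car3 was 10.65 to 12.39 in lean and 7.12 to 8.01 in obese mice. The ranges of Adipoq, Fabp4 and Lep overlapped between lean and obese mice in both populations, and Lep went the other way. The part of adipocyte RNA in the counts was not tested.

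Upstream of the family, of 44 tested genes of mTORC1 signalling, Rag GTPases, calcineurin and 14-3-3 proteins, 8 rose in obese FBC cells and none fell. In FB cells 0 of 44 changed at a limma adjusted p below 0.05, while 1 rose and 3 fell without the 3 high-actin arrays, and 7 rose and 3 fell with array weights. The median difference of the list was 0.30 in FBC. Fnip2, a partner of folliculin in the complex that activates RagC and RagD, was higher by 1.56 ± 0.28 on the log2 scale (adjusted p = 0.00168, limma), with a mean of 8.97 ± 0.27 in Lean-FBC and 10.53 ± 0.40 in Obese-FBC (SD, n = 4). Ywhah, a 14-3-3 protein, was higher by 1.24 ± 0.30 (adjusted p = 0.0123, limma). Rptor, the mTORC1 subunit that recruits substrates, was higher by 1.04 ± 0.27 (adjusted p = 0.0176, limma). The Rptor call was lost without Lean-FBC 2 or Obese-FBC 3, with an adjusted p of up to 0.0549 (limma). Stub1, a ubiquitin ligase known to act on TFEB, was higher by 0.91 ± 0.18 (adjusted p = 0.00389, limma).

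Other regulators gave values that did not pass. Flcn, folliculin itself, differed by -0.25 with an adjusted p of 0.537, Rragd, the Rag GTPase that is both regulator and target, by 0.59 ± 0.20 with 0.0644, and Mcoln1, the lysosomal calcium channel upstream of calcineurin, by 0.56 ± 0.21 with 0.0813 (limma, FBC cells). In the obese mice 4 of 44 regulators were higher in FBC than in FB, namely Stub1 by 1.07, Fnip2 by 1.10, Rptor by 1.05 and Ywhag by 0.55 on the log2 scale. The Fnip2 and Rptor calls there were each lost on leaving out any of 4 obese arrays, among them Obese-FB 4 and Obese-FBC 2 for both, and that of Ywhag, named because the count is small, was lost in 15 of 31 other settings. The count of 8 in FBC was 3 without Lean-FBC 2, 4 without Obese-FBC 2, and 5 without any one of Lean-FBC 1, Lean-FBC 3, Obese-FBC 3 or Obese-FBC 4. The count of 4 was 1 without Obese-FBC 2, and 2 without any one of Obese-FB 2, Obese-FB 4 or Obese-FBC 4. Without the 3 high-actin arrays they were 8 and 5, with 2 regulators then lower in FBC, and with the actin ratio as a covariate they were 6 and 1.

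Lysosomal CLEAR targets, the enzymes, membrane proteins and proton pump subunits that TFEB and TFE3 are known to induce, had 15 of 39 tested genes higher and 1 lower in obese FBC cells, with a median difference of 0.64. In FB cells 4 rose (Gusb, Atp6v0d2, Lipa and Tmem192, the last named because the count is small) and 1 fell, with a median of 0.14. That 4 was 2 without Lean-FB 1, Lean-FB 3 or Obese-FB 3, the arrays without which the Lipa call was lost, and the Tmem192 call was lost in 10 of 30 other settings. Gusb, beta-glucuronidase, was higher by 1.99 ± 0.16 in FBC (adjusted p = 1.9e-06, limma) and 0.86 ± 0.16 in FB (adjusted p = 0.004, limma). Atp6v0d2, a subunit of the vacuolar proton pump used by osteoclasts, was higher by 2.50 ± 0.35 in FBC (adjusted p = 0.00018, limma) and 1.71 ± 0.35 in FB (adjusted p = 0.00705, limma). Ctsd, the protease cathepsin D, was higher by 1.49 ± 0.33 in FBC (adjusted p = 0.00689, limma), and Lipa, lysosomal acid lipase, by 1.17 ± 0.15 (adjusted p = 0.000118, limma). Atp6v1h, another pump subunit, fell by 1.52 on the log2 scale in FBC and fell by 1.73 in FB (adjusted p = 0.0438 and 0.0425, limma). Its call in FBC was lost in 16 of 30 other settings, 11 of which each left out 1 array, with an adjusted p of up to 0.44 (limma), and that in FB in 14 of 30.

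Within the obese mice 10 of the 39 lysosomal genes were higher in FBC than in FB, with a median of 0.54, and in the lean mice 0 of 39 were. The 10 was 6 without Obese-FB 4, without Obese-FBC 2, and with the actin covariate. Without the 3 high-actin arrays the counts of higher genes were 17 for obesity in FBC, 7 for obesity in FB (with 3 lower), and 9 for FBC against FB in obese mice. The difference of the obesity effect between the populations was called for 0 of 39 (0.16% of all genes), with a median of 0.53 against 0.07 over all genes, and for 3 without those arrays. Of the genes of this list with a promoter in the RefSeq table, 5 of 14 with the 8 CLEAR letters rose in obese FBC cells (35.7%) and 6 of 17 without them (35.3%). Over all tested genes the shares were 55 of 454 with the letters (12.1%) and 722 of 9177 without (7.87%). Within the list the shares with and without the letters were nearly equal.

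Of 23 tested autophagy targets, 4 rose and 1 fell in obese FBC cells, with a median of 0.33, and 0 changed in FB. Wipi1, which binds the growing autophagosome membrane, was higher by 1.06 ± 0.27 (adjusted p = 0.0147, limma). Ulk1, the kinase that starts autophagy, was higher by 0.92 (adjusted p = 0.0242, limma), and Nrbf2, of the lipid kinase complex of autophagy, by 0.59 (adjusted p = 0.0403, limma). Named because the count is small, the fourth was Vps41, of endosome fusion, by 0.56 (adjusted p = 0.0285, limma). When all probe sets of a gene were averaged, the calls for Wipi1 and Ulk1 were lost (adjusted p = 0.0673 and 0.582, limma). That for Ulk1 was also lost without Lean-FBC 4, Obese-FBC 2 or Obese-FBC 3, and with the actin covariate. The Vps41 call was lost in 7 of 30 other settings, while that for Nrbf2 was lost in 14 of 30 other settings, 10 of which each left out 1 array. Hif1a, the hypoxia factor, fell by 0.74 (adjusted p = 0.0167, limma), a call lost without Lean-FBC 2 or Obese-FBC 3. The count of 4 was 1 without Lean-FBC 4, Obese-FBC 2 or Obese-FBC 3, and 2 without Lean-FBC 1 or Lean-FBC 2. When the 3 high-actin arrays were left out, 6 rose and 2 fell in FBC and 1 rose and 1 fell in FB, and with the actin covariate 2 rose in FBC.

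The list of feedback targets holds targets of the family, some of which regulate it in turn. With the family's own genes set aside, its median obesity difference was 0.45 in FBC and -0.12 in FB. Of its 8 tested genes 2 were higher in obese FBC cells. These were Fnip2, given above, and Gpnmb, a transmembrane glycoprotein of stressed lysosomes. The Gpnmb level was 8.90 to 10.07 in Lean-FBC and 12.28 to 12.69 in Obese-FBC, a difference of 3.24 ± 0.37 on the log2 scale (adjusted p = 2.39e-05, limma). In FB cells it was 7.18 to 8.37 in lean and 8.30 to 10.00 in obese mice, a difference of 1.35 ± 0.37 (adjusted p = 0.039, limma) that was lost in 12 of 30 other settings. In this list 3 of the 8 genes fell in FB and 2 in FBC without the 3 high-actin arrays, where 0 fell with all arrays. Ppargc1a, the coactivator by which TFEB acts on metabolism, was too dim to be tested.

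The targets that MITF and TFE3 have in osteoclasts and macrophages included the largest called difference between obese and lean mice of the 6 lists, that of Ctsk in FBC. Of 16 tested, 8 rose and 2 fell in obese FBC cells, with a median of 0.67, and 3 rose and 2 fell in FB. Ctsk, the collagen-cutting cathepsin K of osteoclasts, had a level of 8.49 to 9.60 in Lean-FBC and 12.07 to 13.12 in Obese-FBC, a difference of 3.51 ± 0.46 (adjusted p = 0.000119, limma). In FB cells it was 6.45 to 8.11 in lean and 8.57 to 10.93 in obese mice, a difference of 2.37 (adjusted p = 0.0055, limma). Both pairs of groups were separate for Ctsk, as 7.8% of all single-symbol probe sets were in that direction in FBC. The share in FB is not given here. In the opposite direction Mmp9, a secreted matrix protease, fell by 2.92 on the log2 scale in FBC and fell by 2.80 in FB (adjusted p = 0.000645 and 0.00178, limma), and Dcstamp, needed for fusion of osteoclasts, fell by 1.69 in each (adjusted p = 0.00389 and 0.00674, limma). Csf3r, a cytokine receptor, differed by -0.01 in FBC (adjusted p = 0.985, limma).

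Summed neutrophil markers, whose gene S100a8 was bright on 16 of 16 arrays, were 10.53 to 11.46 in Lean-FB, 9.17 to 11.16 in Obese-FB, 8.16 to 9.31 in Lean-FBC and 8.06 to 9.90 in Obese-FBC (4 of 6 measured markers bright). Their part in the Mmp9 difference was not tested. In the obese mice 7 of the 16 osteoclast and macrophage targets were higher in FBC than in FB, with Gpnmb at 3.25, Ctsk at 2.68 and Atp6v0d2 at 2.32 on the log2 scale. Dcstamp was also higher there, by 1.88, and by 1.88 in the lean mice (adjusted p = 0.0315, limma), where it was the only called gene of any list. The lean Dcstamp call was lost in 9 of 31 other settings, among them 7 that each left out 1 array.

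**Figure D4:**
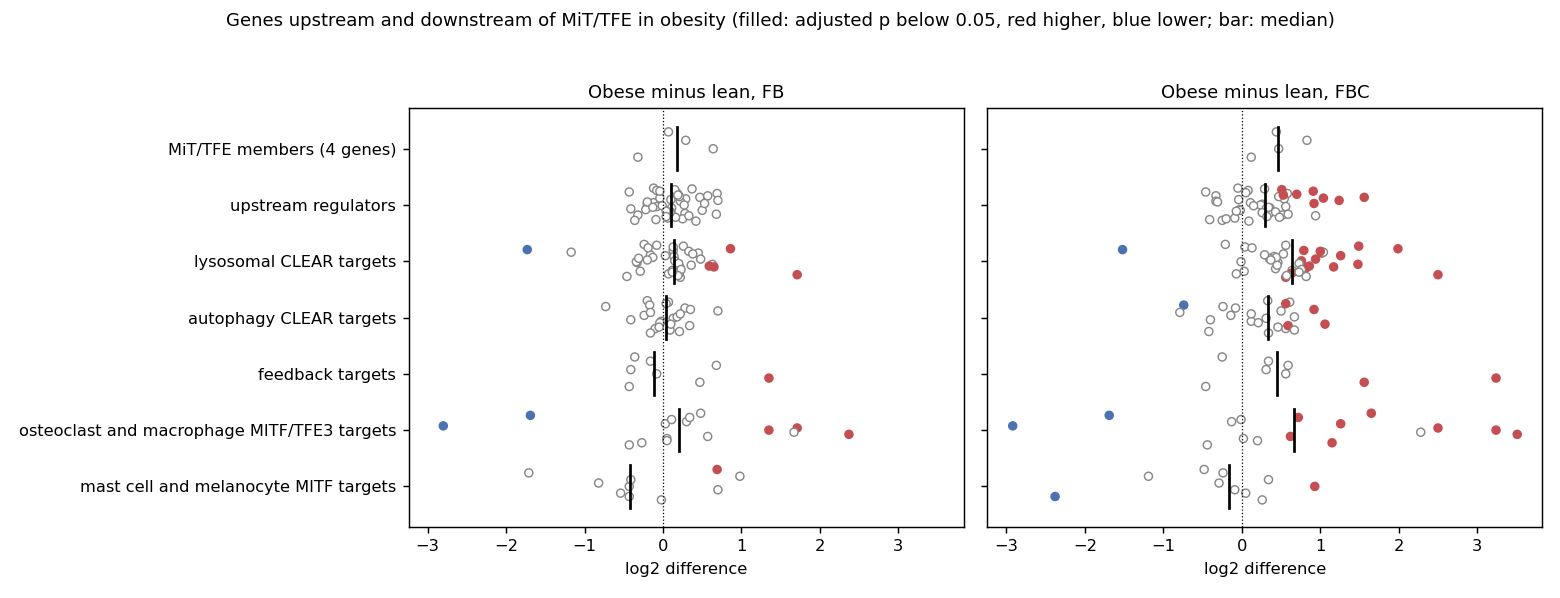
Each point is a tested gene of one list, placed by its log2 difference between obese and lean mice in FB (left) or FBC (right), with filled points for genes past an adjusted p of 0.05 and a bar at the median. The medians in FBC are 0.64 for lysosomal targets and 0.67 for osteoclast and macrophage targets, while the 4 MiT/TFE genes are all open points between 0.12 and 0.83.

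MITF targets of mast cells and melanocytes were largely dim, with 10 of 21 bright enough to test. Of these, 1 rose and 1 fell in obese FBC cells, and 1 rose in FB, the survival factor Bcl2, by 0.69 (adjusted p = 0.0441, limma), a call lost in 16 of 30 other settings. The counts without the 3 high-actin arrays were 3 higher and 2 lower in FB, and 1 higher and 2 lower in FBC. Kit, the stem cell factor receptor, was higher in FBC by 0.93 (adjusted p = 0.0333, limma), a call lost without any one of the 4 Obese-FBC arrays, Lean-FBC 1 or Lean-FBC 2, and Hdc, which makes histamine, fell by 2.38 on the log2 scale (adjusted p = 0.000228, limma). In the obese mice FBC minus FB was -3.55 for Hdc, -1.46 for Bcl2 and 1.66 for Kit on the log2 scale (adjusted p = 2.97e-05, 0.000298 and 0.00146, limma). It was -1.84 for Met, the receptor of hepatocyte growth factor (adjusted p = 0.0249, limma), a call lost in 6 of 31 other settings. The summed mast cell markers were 10.69 to 11.62 in Lean-FB, 9.91 to 10.91 in Obese-FB, 9.82 to 10.00 in Lean-FBC and 9.33 to 9.74 in Obese-FBC, with 6 of 10 bright and Mcpt4 not above the median on any array. Hdc and Kit are themselves among these markers, so the sum is not separate from either. Hdc was 8.39 to 9.01 in Lean-FBC and 5.93 to 6.52 in Obese-FBC. Kit went the other way, at 5.58 to 6.66 and 6.96 to 7.24. The part of mast cells in the Hdc difference was not tested. Of the 5 melanocyte markers 0 were bright, and Tyrp1 and Mlana were not above the median on any array.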

How the data were processed

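RNA of sorted macrophages was amplified in 2 rounds and hybridized to 16 Affymetrix Mouse Genome 430 2.0 arrays. The authors deposited 1 linear intensity for each probe set and array. The submitters' processing notes name Affymetrix Expression Console. Not given in the sources used here: its summarization method, its version, the genome build. Detection calls were not used here. The 2% trimmed mean was 250 on every array. Precision is limited by the number of arrays.

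The deposited intensities were taken here as log2(intensity + 16), which understates changes of dim genes, and quantile-normalized. One limma 3.58.1 model (R 4.3.3) of the 4 groups, without a replicate block, was fitted to 34945 single-symbol probe sets; p-values were adjusted by Benjamini-Hochberg at 0.05. Of these, 34741 matched a RefSeq gene ID and 0 were renamed. Target lists used the brightest probe set of each gene (18193 genes, 11908 tested). The scripts were tested on simulated data.

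Genes named are all member probe sets, up to 3 called genes of each list, direction and comparison, 6 genes fixed by name (Csf3r, Ppargc1a, Gpnmb, Flcn, Rragd and Mcoln1), and the 3 most correlated genes of each member. Outside this rule Vps41, Ywhag, Tmem192, Clcn7, Ctsa, Lamp1 and Naglu were named after their values were seen. Members and lists were chosen with earlier results of these data known. Residual correlations of arrays of one number within a genotype were 0.135, 0.231, 0.299 and 0.595 in lean mice, for numbers 1 to 4. In obese mice they were 0.31, 0.033, -0.03 and -0.137. The 0.595 joins Lean-FB 4 and Lean-FBC 4, both high-actin arrays. Arrays of unlike number were not compared, so these values do not settle whether a number marks 1 mouse. Alternatives covered normalization, pseudocount, filter, probe sets tested, moderation, array weights, samples, block, actin ratio and each array left out.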

Additional observations from a re-analysis of the deposited data

Results flagged for a closer look

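Among 20 sets of 4 arrays, 1 for each probe set and group, 3 held an array far from its group by Dixon's criterion (gap over range above the 95% critical value), where chance gives about 1 in 20. The Tfec level of Lean-FBC 4 was 5.59, against 7.51 to 7.82 on the other arrays of that group (gap over range 0.86). The Tfec level of Obese-FB 4 was 6.56, against 7.66 to 7.86 (0.845). Both are high-actin arrays, and the Tfec differences without them are given with the Tfec results. The dim Mitf level of Obese-FBC 3 was 6.65, against 6.44 to 6.47 (0.888), within the range of that probe set in the other 3 groups.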

How the results depend on the processing

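Of the 755 values of the 25 member results under other settings, 3 passed the threshold, all for Tfeb in obese against lean FB cells, and 37 had another sign, none of them past the threshold. The count of member probe sets called in that comparison was 1 with array weights and 1 without the 3 high-actin arrays, and 0 to 1 when arrays were left out in turn (1 without Lean-FB 4). For the other 4 comparisons it was 0 in every setting run. Target genes called over all 6 lists, 10 for obesity in FB, were 46 with array weights, 6 with no filter, 26 without the 3 high-actin arrays, and 5 to 15 with arrays left out in turn. For obesity in FBC the 39 became 67 with array weights and 24 to 46 with arrays left out, 24 without Lean-FBC 2. For FBC against FB in lean mice the 1 called became 5 with the actin covariate, 15 with array weights, 0 with a pseudocount of 1, 0 without the 3 high-actin arrays, 3 with the replicate block fixed and 3 with it random, and 0 to 2 with arrays left out. In obese mice the 23 became 41 with array weights and 38 with the replicate block random, and 15 to 28 with arrays left out, 15 without Obese-FBC 2. For the difference of effects the 0 became 28 with array weights, 1 with trend and robust moderation, 1 with the filter at the 60th percentile, 2 with a pseudocount of 64, 5 and 4 with the replicate block fixed and random, 8 without the 3 high-actin arrays and 0 to 8 with arrays left out. The share of all genes called under each of these settings is not given here. These counts therefore do not show a change particular to the lists. The cause was not tested. The replicate block changed no member's call. Of 56 calls of named target genes, 31 held in every setting and 25 were lost in some, with 0 reversed. A fixed block cannot be estimated for obese against lean mice, a fit of only the groups compared gives no difference of effects, and dim Mitf drops out with 1 probe set per gene. The per-list counts without the 3 arrays were added after seeing the data. Dim probe sets are limited by signal over background, for which no detection calls were at hand.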
